A study of Mus musculus with 21 samples.

Results

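The Rab, exocyst and Vps transcripts of mouse gastrocnemius muscle were taken as every row of the deposited count table whose symbol was Rab, Exoc or Vps followed by a number and whose mean was at least 10 counts over the 21 libraries. Of 40853 genes in the table, 106 symbols matched and 95 were kept, 48 Rab, 12 exocyst and 35 Vps genes. The 11 left out by the minimum were all Rab genes (Rab3b, Rab9b, Rab17, Rab19, Rab25, Rab26, Rab33a, Rab37, Rab38, Rab39b and Rab44). The rule used the mean over the whole series and no difference between groups. All 95 members were also kept by edgeR's filter on low counts, which left 16129 genes to be tested. Vps72 was taken in by its symbol, although its product is a chromatin protein and not a vesicle protein.

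RNA of the medial belly of the gastrocnemius, a calf muscle, was sequenced after poly(A) selection from 21 female C57BL/6NJ mice, 7 in each of 3 groups, with 1 library per mouse. Mice were 10 weeks old at the start. The Active group ran on a treadmill for 6 weeks, 5 days per week, in sessions of up to 40 min that began with a slow warm-up and went on at about 70% of maximal speed, the Activity Reduction group did so for 4 weeks and then rested for 2 weeks, and the Inactive group did not train. Every mouse, Inactive mice included, took a final maximal running test 48 to 72 h before its tissues were collected in the fasted state. Hence no group was free of running, and the mice form 1 strain and 1 sex.

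Vesicle transport moves membrane proteins and cargo between the organelles of the cell and its surface. Rab proteins are small GTPases that mark the membrane of each compartment and recruit motors and tethers when bound to GTP. The exocyst is a tethering complex that holds secretory vesicles at the plasma membrane before fusion. The Vps proteins, named for vacuolar protein sorting in yeast, build several machines: retromer and retriever return receptors from endosomes, HOPS and CORVET tether endosomes and lysosomes, GARP and EARP tether vesicles to the Golgi and to recycling endosomes, ESCRT cuts vesicles into the lumen of endosomes, and VPS13 proteins move lipids between membranes. In muscle, this traffic also brings the glucose transporter GLUT4 to the fibre surface after insulin or contraction.

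Between 38482455 and 59785132 counts were held by a library, and every Active library held fewer than every Inactive library. The members took between 0.342% and 0.394% of them. All 12 muscle fibre markers examined were counted, with a sum between 153400 and 185400 CPM (the count scaled to the library total). All 24 hepatocyte markers were counted as well, and their summed level ran from 228 to 2317 CPM in the Inactive, from 214 to 2035 CPM in the Active and from 168 to 1617 CPM in the Activity Reduction group. They divided the libraries into 8 with more and 13 with fewer liver transcripts. Of the 8, 5 were Active, 2 were Activity Reduction and 1 was Inactive, so the groups were unevenly divided. The 8 libraries were also those of the 8 lowest mouse numbers in the labels, so mouse number and liver transcripts cannot be told apart. Results are given within the division where they touch it. In bulk muscle, fewer cells of a type and less RNA per cell cannot be told apart.

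Rab10 was the most abundant member. Levels between genes were compared as CPM per kilobase of exon, and Rab10, which carries GLUT4 storage vesicles to the plasma membrane, had a median of 89.1 over the 21 libraries, above 98.8% of the genes tested. Rab2a, which acts between the endoplasmic reticulum and the Golgi, followed at 54.2, although its range in the Inactive group reached down to 39.1. Rab1b, which also acts between these compartments, had a median of 35.9 and Rab7, the Rab of late endosomes and lysosomes, one of 34.7. The ranges of Rab1b and Rab7 overlapped in all 3 groups, so their order is not separated by the spread between mice. At the other end were Rab27b and Rab3c, which serve regulated secretion in gland cells and neurons, at 0.0243 and 0.0170 CPM per kilobase.

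Exoc6 led the exocyst with a median of 17.9 CPM per kilobase, followed by Exoc7 at 7.79, Exoc3 at 6.51, Exoc4 at 4.87 and Exoc8 at 2.43. Exoc5 (1.52), Exoc2 (1.37), Exoc1 (0.935) and Exoc6b (0.880) were lower. The subunits of 1 complex thus spanned a wide range on this scale. The order depends on the exon length used, which merges the exons of all annotated transcripts. By mean raw count Exoc7 (4431) stood above Exoc6 (3892) and Exoc4 (3829), with merged exons of 11425, 4334 and 15647 bases. The Exoc6 transcript was above that of its paralog Exoc6b in every library, since the lowest Exoc6 value was 15.4 and the highest Exoc6b value 0.993. Per kilobase, the ESCRT members led among the Vps genes. Vps4a, the ATPase that takes the ESCRT filament apart, had a median of 20.9. The medians of Vps36 of ESCRT-II and Vps28 of ESCRT-I were 11.6 and 11.3. The ranges of Vps36 and Vps28 overlapped in the Inactive and Active groups, and in the Activity Reduction group Vps36 (11.52 to 12.5) lay just above Vps28 (10.29 to 11.47).

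Vps transcripts varied least between mice. The coefficient of variation within a group, averaged over the 3 groups, had a median of 5.48% over the Vps, 7.58% over the exocyst and 10.1% over the Rab members, beside 13.0% over all genes tested. Vps4a had the smallest, 2.68%, and Rab3c the largest, 113%. Level bears on these values, since a transcript with few counts has a larger counting error.

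**Figure D1:**
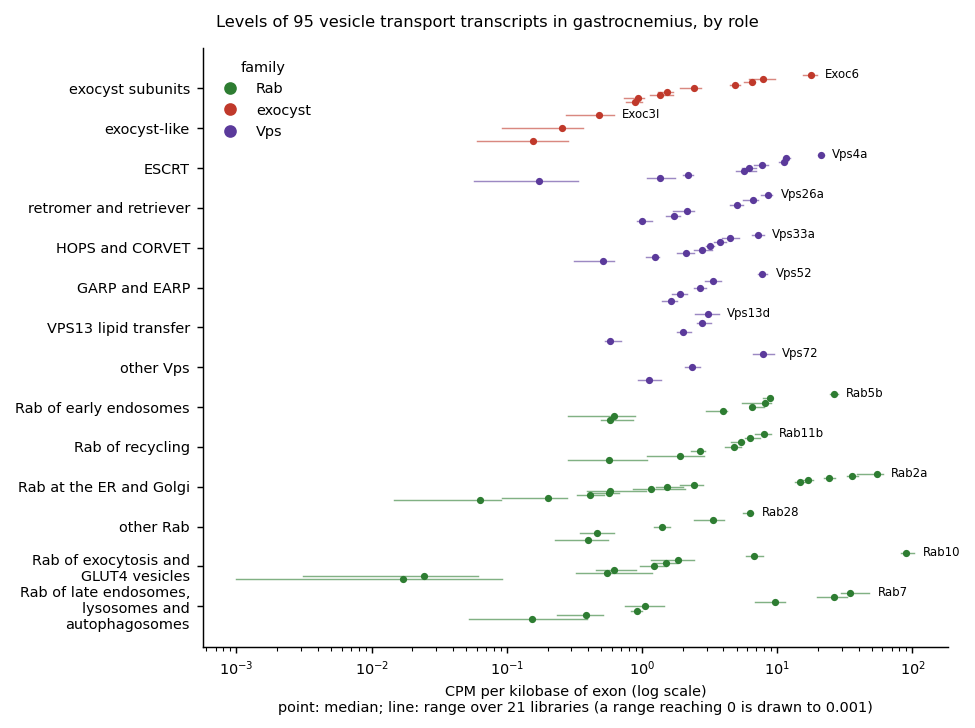
Level of each of the 95 members in CPM per kilobase of exon (log scale), grouped by role and coloured by family; points are medians and lines are ranges over the 21 libraries, and the highest member of each role is named. Rab10 stands at 89.1 at the right, and Rab27b and Rab3c at 0.0243 and 0.0170 at the left.

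No member passed edgeR's thresholds, an adjusted p-value under 0.05 and a log2 fold change over 0.25, in any of the 3 comparisons. The share of all 16129 genes that passed was 0% for Active against Inactive, 0.0124% for Activity Reduction against Inactive and 0% for Activity Reduction against Active. At an unadjusted p-value under 0.05, 6 members were higher and 6 lower in Active than in Inactive muscle, which is 6.32% of the members in each direction beside 6.18% and 4.69% of all genes. In Activity Reduction against Inactive muscle 3 members were higher and 5 lower, 3.16% and 5.26% of the members beside 4.19% and 3.54% of all genes. In Activity Reduction against Active muscle 8 were higher and 5 lower, 8.42% and 5.26% beside 6.89% and 6.44%. In this edgeR fit these shares were near those of all genes. With the liver division as a covariate, 5 members were higher and 7 lower for Active against Inactive (4.24% and 4.27% of all genes), 3 and 3 for Activity Reduction against Inactive (4.54% and 3.71%), and 6 and 5 for Activity Reduction against Active (5.54% and 5.18%). The values of every member overlapped between the 2 groups of each comparison. Over all genes, the share without overlap was 0.0434% higher and 0.211% lower for Active against Inactive, 0.0558% and 0.062% for Activity Reduction against Inactive, and 0.18% and 0.112% for Activity Reduction against Active. The 3 comparisons share groups and are not independent of each other.

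DESeq2, fitted to the 14 libraries of the 2 groups compared, called 1 member, Exoc7. The call was made against Inactive muscle for both Active and Activity Reduction muscle. Of the 13555 and 14575 genes with an adjusted p, 0.553% and 0.302% were called. No member was called in Activity Reduction against Active muscle, where 0.906% of 14570 genes were called. DESeq2 on all 3 groups called Exoc7 in Active against Inactive muscle, where 0.424% of 13457 genes with an adjusted p were called. It called no member in Activity Reduction against Inactive (0.252% of 9109) or Activity Reduction against Active muscle (0.869% of 13457). In the former, members with fewer counts, such as Rab2b, Rab23, Rab29, Rab32, Rab27b and Vps37d, were given no adjusted p and could not be called.

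Exoc7 encodes the subunit also known as Exo70, which binds phosphoinositides of the plasma membrane and so anchors the exocyst there. The gene (ENSMUSG00000020792.17) lies on the minus strand of chromosome 11 from 116175643 to 116198059 (GRCm39, GENCODE M39). Its normalized count, the raw count divided by the library's size factor, was lowest at 4501, 5108 at the median and highest at 5450 in the Inactive group. The Active values ran from 3438 through a median of 3873 to 4585, and the Activity Reduction values from 3576 through 4333 to 4508. The groups overlapped narrowly: 4 of 7 Active and 6 of 7 Activity Reduction libraries lay below every Inactive library. Means were 4972 ± 369 (SD, n = 7), 4002 ± 532 (SD, n = 7) and 4170 ± 317.1 (SD, n = 7), in the order Inactive, Active, Activity Reduction.

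The Exoc7 level was 19.1% lower in Active than in Inactive muscle (log2 fold change -0.31, SE 0.07, edgeR adjusted p = 0.159, DESeq2 adjusted p = 0.0107), and the two-sided exact permutation test over the 7 and 7 mice gave p = 0.00466. It was 15.9% lower in Activity Reduction than in Inactive muscle (log2 fold change -0.25, SE 0.07, edgeR adjusted p = 0.344, DESeq2 adjusted p = 0.0154, exact permutation p = 0.00117). The smallest p this exact test can give is 0.000583. Between Activity Reduction and Active muscle the log2 difference was 0.06 (SE 0.07, edgeR adjusted p = 0.763). The DESeq2 call in Active against Inactive muscle was kept in each of 14 fits that left out 1 library, with adjusted p from 0.00212 to 0.0469. In Activity Reduction against Inactive muscle it was kept in 7 of 14. Without Inactive replicate 3, 5 or 6 or Activity Reduction replicate 6, the adjusted p was 0.0566, 0.0744, 0.0538 and 0.0779. Without Inactive replicate 4 or Activity Reduction replicate 2 or 5, the log2 fold change was -0.25, -0.25 and -0.22, under the threshold in size.

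Exoc7 was also below the Inactive group among the libraries with fewer liver transcripts. There the mean was 5008 in 6 Inactive, 3525 in 2 Active and 4119 in 5 Activity Reduction libraries. In these libraries edgeR's log2 fold changes against the Inactive group were -0.50 and -0.28, and 0.22 for Activity Reduction against Active muscle. Among the libraries with more, the mean was 4759 in the 1 Inactive, 4193 in the 5 Active and 4298 in the 2 Activity Reduction libraries. With the liver division as a covariate DESeq2 gave adjusted p = 0.0119 and 0.0238. On the opposite strand the pseudogene Zacn-ps overlaps 6.87% of the Exoc7 exons. Whether counting used strand is not given in the sources used here.

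Against Inactive muscle, the other exocyst subunits differed less than Exoc7. Exoc3, a core subunit, had Inactive values of 2566, 2677 and 2724 (lowest, median, highest), Active values of 2357, 2557 and 2824, and Activity Reduction values of 2373, 2443 and 2694. Of the Activity Reduction libraries 6 of 7 lay below every Inactive library, and the level was 6.95% lower (log2 fold change -0.10, SE 0.04, edgeR adjusted p = 0.484, exact permutation p = 0.00466). Exoc8, the subunit known as Exo84, was 8.87% lower in Active than in Inactive muscle (SE 0.06 on the log2 scale, edgeR adjusted p = 0.451), and 19.8% of its exons overlap Sprtn on the opposite strand. Exoc6, the highest per kilobase, had log2 differences of -0.02, -0.02 and 0.00 in the 3 comparisons, each with an SE of 0.04. Their signs turned with the libraries used (0.06, 0.02 and -0.03 over the libraries with fewer liver transcripts). Exoc1, Exoc2, Exoc4, Exoc5 and Exoc6b had log2 differences between -0.13 and 0.07. Exoc3l, Exoc3l2 and Exoc3l4, which resemble Exoc3 but are not standard subunits, had mean normalized counts under 100 in every group, and none reached an unadjusted p under 0.05.

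**Figure D2:**
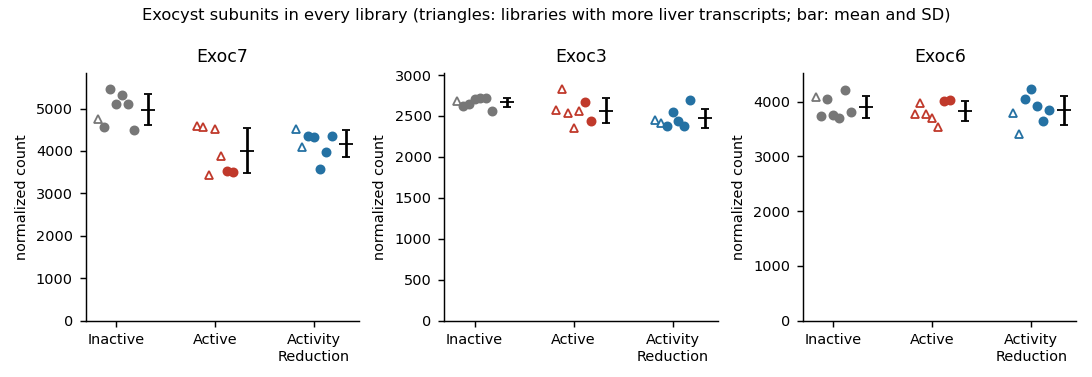
Normalized counts of Exoc7, Exoc3 and Exoc6 in every library (axes from 0), by group; triangles are libraries with more liver transcripts, and bars are mean and SD over 7 mice. Exoc7 means are 4972, 4002 and 4170, and Exoc6 means are 3903, 3826 and 3843.

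Summed over its 12 members, the exocyst took 395 to 437 CPM in the Inactive, 373 to 409 CPM in the Active and 363 to 408 CPM in the Activity Reduction group. Exoc7 was 24.2% of this sum at the median of the Inactive group, 21.04% of the Active and 21.98% of the Activity Reduction group. With Exoc7 left out the medians were 314.4, 308.4 and 303.5 CPM, and the ranges overlapped widely (303.6 to 337.3, 301.8 to 320 and 283.3 to 314.9 CPM). The Vps sum ran from 1129 to 1174 CPM in the Inactive group, from 1095 to 1132 CPM in the Active and from 1063 to 1161 CPM in the Activity Reduction group. Inactive and Active muscle hence overlapped only between 1129 and 1132 CPM. The medians of the Vps sum were 1162, 1115 and 1094 CPM, lowest in Activity Reduction muscle. In the fits below, most Vps members instead had a fold change above 0 in Activity Reduction against Active muscle. The Rab sum overlapped in all groups, with medians of 2158, 2157 and 2191 CPM. Sums weight each transcript by its length and level, and no test was made of them. They are scaled to the library total alone, without the normalization used in the fits, so small gaps between groups depend on that scaling.

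**Figure D3:**
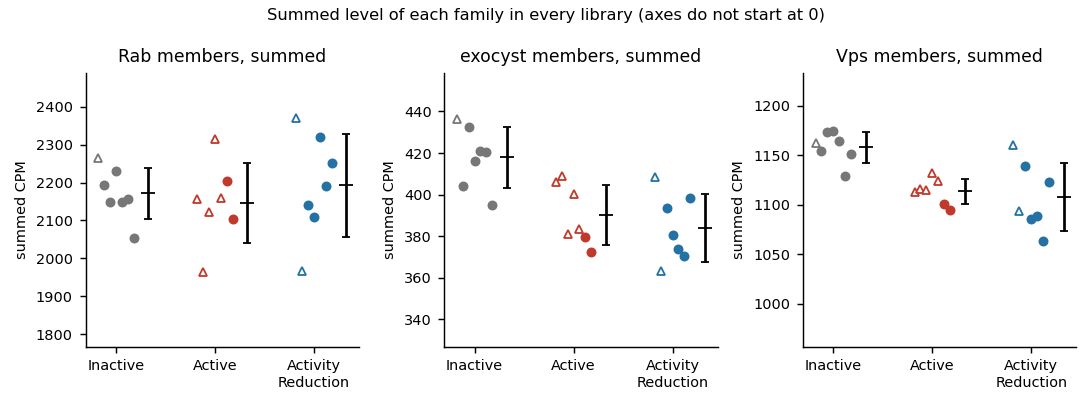
Summed CPM of the Rab, exocyst and Vps members in every library by group (axes do not start at 0); triangles are libraries with more liver transcripts, and bars are mean and SD over 7 mice. Exocyst sums are 395 to 437 CPM in Inactive and 373 to 409 CPM in Active muscle, while the Rab sums overlap.

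By family, the median log2 fold change in Active against Inactive muscle was 0.01 over the Rab, -0.04 over the exocyst and -0.05 over the Vps members, beside 0.01 over all genes tested. For Activity Reduction against Inactive these medians were 0.04, -0.02 and -0.01 (all genes 0.01), and for Activity Reduction against Active 0.03, 0.01 and 0.04 (all genes 0.00). In the first comparison 29 of 35 Vps members had a value below 0, among them all 5 of GARP and EARP, all 4 VPS13 genes and 7 of 8 of HOPS and CORVET. In the comparison of Activity Reduction with Active muscle 27 of 35 Vps members had a value above 0, all 8 of HOPS and CORVET included, beside 8029 of 16129 genes tested. The Active group is in both, and the differences are small: the medians of HOPS and CORVET were -0.05 and 0.05. Of the 9 Rabs of exocytosis and GLUT4 vesicles, 8 were above 0 in Active against Inactive muscle (median 0.11), with 1 at an unadjusted p under 0.05, and of the 7 Rabs of late endosomes, lysosomes and autophagosomes 5 were (median 0.10), with 3 at that level. Over all genes tested, 8330 of 16129 were above 0 and 6.18% were higher at that level. Of the 7 Rabs of early endosomes, 7 were above 0 in Activity Reduction against Inactive muscle (median 0.06), with none at that level. Rab5b was among them at 0.0003, and at -0.005 by DESeq2 on the 2 groups. Over all genes tested, 8424 of 16129 were above 0 in that comparison.

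**Figure D4:**
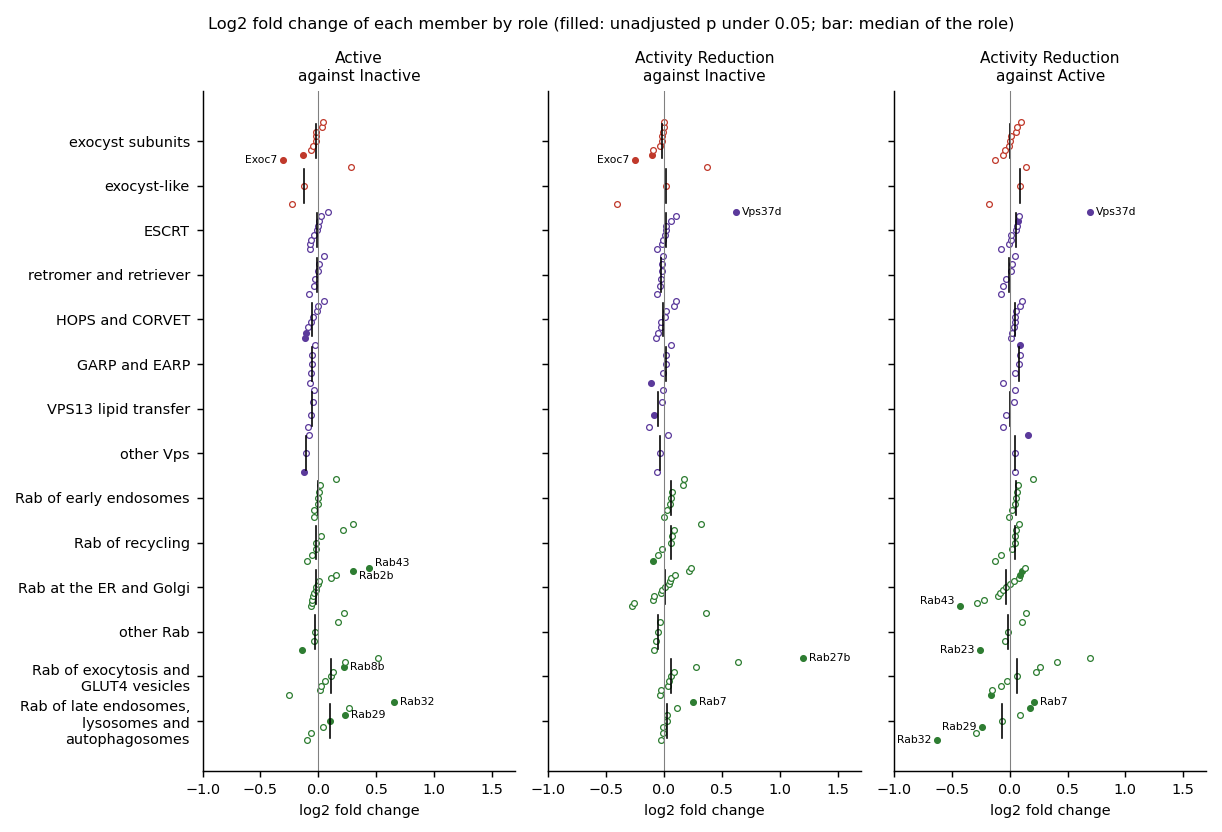
Log2 fold change (edgeR) of each member, by role, in the 3 comparisons; filled points have an unadjusted p under 0.05, black bars are the median of the role, and such points past 0.2 in size are named. Exoc7 stands at -0.31 and -0.25 in the comparisons with Inactive muscle, and Rab27b at 1.204 in Activity Reduction against Inactive muscle.

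Among the Rabs of late endosomes and lysosomes, Rab7 was higher after the rest from training, without passing the test. Rab7 recruits the HOPS tether and dynein to late endosomes. Its normalized counts (lowest, median, highest) were 9354, 10440 and 11621 in the Inactive, 9999, 10582 and 12037 in the Active, and 9641, 12593 and 15408 in the Activity Reduction group. Here 5 of 7 libraries lay above every Inactive library, while the other 2 lay within its range, so this group was also the most spread (SD 2118, against 724 and 704). The log2 fold change was 0.25 (SE 0.08) against Inactive muscle and 0.21 (SE 0.08) against Active muscle (edgeR adjusted p = 0.445 and 0.260), with exact permutation p = 0.0390 and 0.0647. The processed pseudogene Rab7-ps1, which has no row in the table, matches 28.8% of the Rab7 transcript at up to 95.3% identity. How reads of these stretches were placed was not tested.

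Rab12, which directs receptors from recycling endosomes to lysosomes, was 13.1% higher in Activity Reduction than in Active muscle (log2 fold change 0.18, SE 0.08, edgeR adjusted p = 0.318). Rab29, which acts at the trans-Golgi network and stressed lysosomes, was 17.6% higher in Active than in Inactive muscle and 15.3% lower in Activity Reduction than in Active muscle (log2 fold change 0.23 and -0.24, SE 0.10 in both, edgeR adjusted p = 0.401 and 0.288). These were 0.14 and -0.17 with a covariate for liver transcripts and 0.07 and -0.10 over the libraries with fewer of them. Rab32, which serves lysosome-related organelles and mitochondria, had low counts, with means of 27.5 ± 6.60 in Inactive, 43.1 ± 20.8 in Active and 27.9 ± 8.14 in Activity Reduction muscle (SD, n = 7). Its log2 fold change was 0.66 (SE 0.29) for Active against Inactive muscle and -0.63 (SE 0.29) for Activity Reduction against Active muscle, and the Active values ran from 10.6 to 75.2, on both sides of the other groups. The first of these was 0.33 when fitted to libraries with fewer liver transcripts. Rab9, which returns mannose 6-phosphate receptors to the Golgi, was 6.91% higher in Active than in Inactive muscle (edgeR adjusted p = 0.407).

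Rab27b and Rab8b stood out among the Rabs of exocytosis. Rab27b, which docks secretory granules, was close to its floor, with normalized counts (lowest, median, highest) of 1.78, 9.83 and 16.9 in Inactive, 2.06, 13.8 and 25.1 in Active, and 10.99, 21.89 and 37.76 in Activity Reduction muscle. Of the Activity Reduction libraries 6 of 7 lay above every Inactive library. The log2 fold change between them was 1.204 (SE 0.43), the largest of any member (edgeR adjusted p = 0.484, exact permutation p = 0.00466). At so few counts the error of each value is large. This transcript was given no adjusted p by DESeq2 on the 3 groups, and one of 0.2255 by DESeq2 on the 2 groups.

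Rab8b, which carries vesicles to the plasma membrane, had normalized counts (lowest, median, highest) of 237.8, 288.3 and 358.5 in Inactive, 311.3, 338.3 and 370.1 in Active, and 272.3, 306.3 and 318.2 in Activity Reduction muscle. Active values lay in the upper part of the Inactive range or above it, and 4 of 7 Activity Reduction values lay below every Active value. The log2 fold change was 0.22 (SE 0.08) for Active against Inactive muscle and -0.16 (SE 0.08) for Activity Reduction against Active muscle (edgeR adjusted p = 0.329 and 0.358), with exact permutation p = 0.0210 and 0.00466. Rab10, the most abundant of this role, had mean normalized counts of 17230 ± 878, 17392 ± 943 and 18222 ± 1418 (SD, n = 7) in Inactive, Active and Activity Reduction muscle. These means differed by less than the spread within the Activity Reduction group.

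Rab43 and Rab2b were the members at the endoplasmic reticulum and Golgi with the largest differences. Rab43, which serves Golgi structure and the sorting of membrane receptors, had normalized counts (lowest, median, highest) of 278.1, 319.4 and 476.3 in Inactive, 290.4, 439.5 and 581.4 in Active, and 257.2, 325.2 and 462.7 in Activity Reduction muscle. The Inactive and Activity Reduction values overlapped almost fully. Active muscle was 35.3% above Inactive (log2 fold change 0.44, SE 0.15, edgeR adjusted p = 0.333, exact permutation p = 0.0367), and Activity Reduction muscle 25.6% below Active (log2 fold change -0.43, SE 0.15, edgeR adjusted p = 0.231, exact permutation p = 0.0367).

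The Rab43 level moved with the liver division. In the libraries with more liver transcripts, it was 476.3 in the 1 Inactive, 485.2 at the mean of 5 Active and 409.4 at the mean of 2 Activity Reduction libraries, and in those with fewer its means were 306.9, 347.3 and 301.4 in 6, 2 and 5 libraries. With the division as a covariate, the log2 fold changes were 0.15 and -0.21. The part of the liver transcripts in the group differences was not tested further. Of the Rab43 exons, 71.1% are shared with Gm45140 on the same strand, which has no row in the table.

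Rab2b, the less abundant paralog of Rab2a, had normalized counts (lowest, median, highest) of 121, 128 and 157 in Inactive, 123, 164 and 186 in Active, and 122, 165 and 186 in Activity Reduction muscle. Of the Active libraries 5 of 7 lay above every Inactive library. The log2 fold change between them was 0.30 (SE 0.11, edgeR adjusted p = 0.354, exact permutation p = 0.0117), and 0.47 over the libraries with fewer liver transcripts. On the opposite strand Gm43766 overlaps 44.2% of its exons. Rab1b, by contrast, is abundant, with 5202, 5572 and 5764 in Inactive, 5139, 5248 and 5469 in Active, and 5087, 5688 and 6240 in Activity Reduction muscle. It was 7.38% higher in Activity Reduction than in Active muscle (log2 fold change 0.10, SE 0.04, edgeR adjusted p = 0.258, exact permutation p = 0.0268), with 5 of 7 values above every Active value and 1 below all of them. Over the libraries with fewer liver transcripts this log2 fold change was 0.06.

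Rab23, a Rab known for restraining Hedgehog signalling at the primary cilium, had normalized counts (lowest, median, highest) of 184, 218 and 244 in Inactive, 209, 250 and 287 in Active, and 171, 209 and 237 in Activity Reduction muscle. It was 16.3% lower in Activity Reduction than in Active muscle (log2 fold change -0.26, SE 0.08, edgeR adjusted p = 0.189, exact permutation p = 0.00641), and 4 of 7 values lay below every Active value. Rab11a, the central Rab of recycling endosomes, had 2028, 2251 and 2467 in Inactive, 2022, 2268 and 2326 in Active, and 1933, 2113 and 2250 in Activity Reduction muscle. Activity Reduction muscle was 6.29% below Inactive (log2 fold change -0.09, SE 0.04, edgeR adjusted p = 0.637, exact permutation p = 0.0367), with the 2 groups overlapping over most of their range.

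The summed markers of endothelium and of macrophages had their highest medians in Active muscle, with ranges that overlapped between all groups. The summed level of 6 of 6 endothelial markers ran from 178 to 230 CPM in Inactive, from 195 to 255 CPM in Active and from 170 to 201 CPM in Activity Reduction muscle, so the last 2 groups overlapped only from 195 to 201 CPM. The sum of 6 of 6 macrophage markers had medians of 19.3, 27.7 and 18.3 CPM, with ranges of 17.4 to 30.5, 20.1 to 32.1 and 12.4 to 26.5 CPM. No marker of either list was at 0 in all libraries. Their part in the values of Rab8b, Rab23, Rab29, Rab32 and Rab43, which were also higher in Active than in Activity Reduction muscle, was not tested. Other Rabs, namely Rab1b, Rab7, Rab12 and Rab6a, went the other way at an unadjusted p under 0.05.

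**Figure D5:**
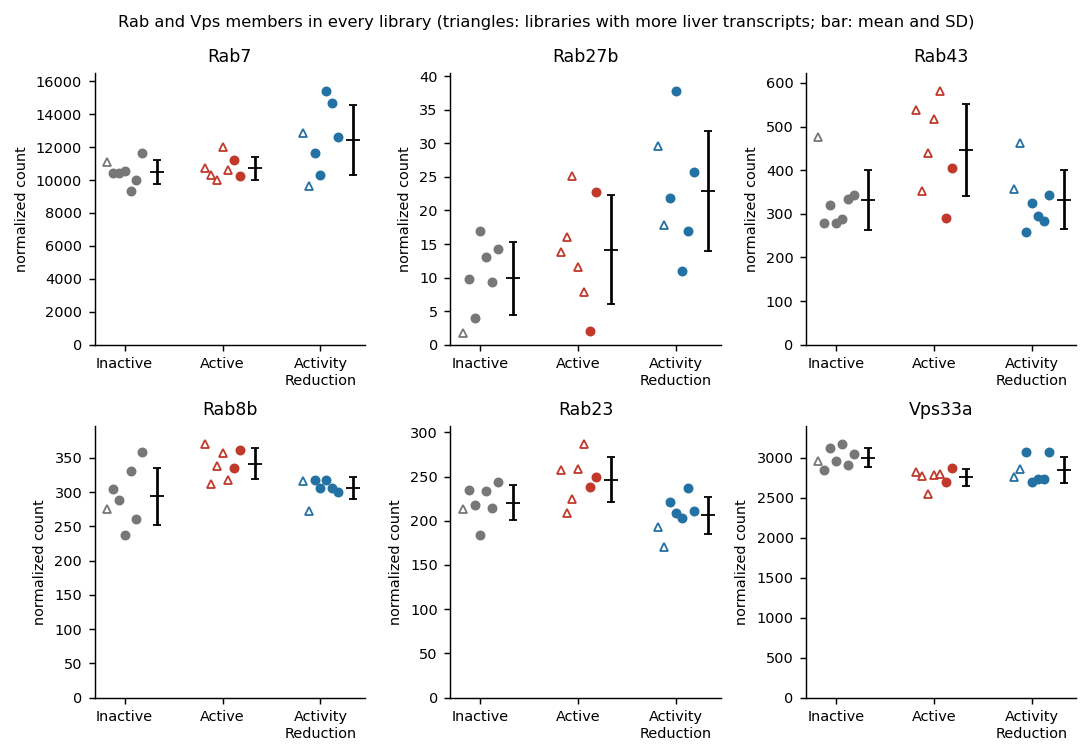
Normalized counts of 5 Rab members and Vps33a in every library (axes from 0), by group; triangles are libraries with more liver transcripts, and bars are mean and SD over 7 mice. Rab7 reaches 15408 in the Activity Reduction group, and in the Rab43 panel most of the highest values are triangles.

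Vps33a, the SNARE-binding subunit of HOPS and CORVET, had normalized counts (lowest, median, highest) of 2839, 2955 and 3170 in Inactive, 2546, 2780 and 2868 in Active, and 2696, 2763 and 3075 in Activity Reduction muscle. Of the Active libraries, 6 of 7 lay below every Inactive library. The level was 7.75% lower (log2 fold change -0.12, SE 0.04, edgeR adjusted p = 0.296, exact permutation p = 0.00117). Vps41, the HOPS subunit that binds lysosomal vesicles, was 7.32% lower in the same comparison (log2 fold change -0.11, SE 0.04, edgeR adjusted p = 0.363). The log2 fold change of Vps33a was -0.07 (SE 0.04) for Activity Reduction against Inactive muscle and 0.05 (SE 0.04) for Activity Reduction against Active muscle.

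Vps37d, 1 of 4 alternative Vps37 subunits of ESCRT-I and the least abundant Vps member, had mean normalized counts of 13.9 ± 5.58 in Inactive, 13.1 ± 4.44 in Active and 21.4 ± 7.60 in Activity Reduction muscle (SD, n = 7). Its log2 fold change was 0.63 (SE 0.30) for Activity Reduction against Inactive and 0.69 (SE 0.30) for Activity Reduction against Active muscle (edgeR adjusted p = 0.644 and 0.332). Among the abundant ESCRT members Vps36 was 5.22% higher in Activity Reduction than in Active muscle (edgeR adjusted p = 0.322), and Vps4a and Vps28 did not reach an unadjusted p under 0.05. Vps52, the GARP and EARP subunit, was 6.47% higher in the same comparison (log2 fold change 0.09, SE 0.04, edgeR adjusted p = 0.303) and had a log2 fold change of 0.02 over the libraries with fewer liver transcripts, while Vps53 of the same complexes was 7.22% lower in Activity Reduction than in Inactive muscle (edgeR adjusted p = 0.644). Vps13c, which moves lipids between the endoplasmic reticulum and late endosomes, was 6.02% lower in that comparison (edgeR adjusted p = 0.644). No retromer or retriever member reached an unadjusted p under 0.05 in any comparison.

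Vps72, the chromatin protein, had normalized counts (lowest, median, highest) of 1729, 1807 and 1901 in Inactive, 1492, 1684 and 1785 in Active, and 1550, 1842 and 2231 in Activity Reduction muscle. It was 8.27% lower in Active than in Inactive muscle (log2 fold change -0.12, SE 0.06, edgeR adjusted p = 0.454, exact permutation p = 0.00524), with 4 of 7 values below every Inactive value. In Activity Reduction against Active muscle it was 11.5% higher (log2 fold change 0.16, SE 0.06, edgeR adjusted p = 0.258, exact permutation p = 0.0519). Without Vps72 the Vps sum ran from 1091 to 1136 CPM in Inactive and from 1064 to 1096 CPM in Active muscle.

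Promoters were searched because many lysosomal genes carry the CLEAR element, which TFEB and related factors bind and whose core is TCACGTGA. RefSeq windows from 250 bases before to 50 bases after the start site (GRCm38.p6) were matched by symbol to 74 of the 95 members. TCACGTGA, which contains the E-box CACGTG and reads the same on both strands, was found for 6 of 74 members, 3 Rab and 3 Vps genes, and for 0 of the 11 matched exocyst genes. It was found for 1.91% of the tested genes with a window and 1.12% of all genes with one. Both strands were searched for 4 other motifs, given here with their share of the tested genes and of all genes. CACGTG was found for 11 of 74 members (14.9%, against 11% and 8.09%), the 6 with TCACGTGA included. The CRE TGACGTCA was found for 1 of 74 (1.35%, against 3.14% and 2.03%), the ETS motif CCGGAAGT for 7 of 74 (9.46%, against 7.82% and 4.31%) and the MEF2 core TATTTATA for 0 of 74 (against 1.41% and 2.01%). A match describes the letters of a window and not binding in this muscle.

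The stretches below, from Vps33a and Vps16, which pair within HOPS, and from the endosomal Rab5a, Rab21 and Rab24, show the core in capitals with up to 40 bases on each side and none past the start site (10 bases on each side for Rab24, where the core lies at the start site itself). The Vps33a window (chr5:123573016-123573084, minus strand) holds the core at 29 and at 13 bases before the start, Vps16 (chr2:130424261-130424319, plus strand) at 19, Rab21 (chr10:115315592-115315662, minus strand) at 31 and Rab5a (chr17:53479098-53479185, plus strand) at 96. The Rab24 stretch is chr13:55321962-55321989, minus strand. All are GRCm38.p6 and are written 5′ to 3′.
Vps33a: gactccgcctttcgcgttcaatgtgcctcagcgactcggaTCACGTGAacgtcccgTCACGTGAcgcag
Vps16: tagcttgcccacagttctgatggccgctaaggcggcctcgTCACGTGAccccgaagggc
Rab21: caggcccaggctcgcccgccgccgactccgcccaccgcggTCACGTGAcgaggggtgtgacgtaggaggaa
Rab5a: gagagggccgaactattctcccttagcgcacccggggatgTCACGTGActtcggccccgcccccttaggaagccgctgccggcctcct
Rab24: ggcgcccgcgTCACGTGAccgggcgtcc

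The 6 members with the core, Vps26a being the other, did not share a direction. In Active against Inactive muscle the log2 fold change was -0.12 for Vps33a, 0.00 for Vps16, 0.02 for Rab21, -0.04 for Rab5a, -0.10 for Rab24 and 0.00 for Vps26a, and Vps33a alone of them reached an unadjusted p under 0.05.

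The proteins that load, recruit or assist the members were taken as 4 lists. No gene of them passed edgeR's thresholds in any comparison. Sort1 had a DESeq2 adjusted p under 0.05 in both comparisons with Inactive muscle, but its log2 fold change was under 0.25 in size. Sort1 encodes sortilin, which sorts GLUT4 into its storage vesicles, and had a mean normalized count of 5510 ± 404 in Inactive, 4659 ± 305.3 in Active and 4705 ± 334.1 in Activity Reduction muscle (SD, n = 7). No Activity Reduction value reached the lowest Inactive value, 5009 against 5075, while the highest Active value, 5093, lay just above it. Over all genes, 0.062% were lower without overlap in Activity Reduction against Inactive muscle, and Sort1 had been picked from the lists by its small p. The Sort1 log2 fold change was -0.24 (SE 0.05) for Active and -0.22 (SE 0.05) for Activity Reduction against Inactive muscle (edgeR adjusted p = 0.159 and 0.201, DESeq2 on the 2 groups 0.00396 and 0.0325).

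Rilpl1, an effector of Rab8 and Rab10, was called by DESeq2 in Activity Reduction against Active muscle (log2 fold change 0.28, SE 0.06, edgeR adjusted p = 0.0900, DESeq2 adjusted p = 0.0111). The Rilpl1 mean was 8157 ± 539 in Inactive, 7508 ± 529 in Active and 9132 ± 996 in Activity Reduction muscle (SD, n = 7), and the last 2 groups overlapped between 7992 and 8081. Rabac1, a Rab acceptor, was 0.15 higher on the log2 scale in the same comparison (SE 0.05, edgeR adjusted p = 0.167). Rabggtb, a subunit of the enzyme that attaches the lipid anchor to Rabs, was lower in Active than in Inactive muscle (log2 fold change -0.14, SE 0.04, edgeR adjusted p = 0.238), and Snf8 of ESCRT-II was higher in Activity Reduction than in Inactive muscle (log2 fold change 0.16, SE 0.05, edgeR adjusted p = 0.428).

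By list, the 40 Rab regulators had 1 higher and 3 lower at an unadjusted p under 0.05 in Active against Inactive muscle, 2 and 2 in Activity Reduction against Inactive muscle, and 2 and 4 in Activity Reduction against Active muscle. Of 34 Rab effectors, 31 could be tested, with 2 higher and 1 lower, 1 and 2, and 1 and 1. The 33 ESCRT and retromer partners had 0 higher and 3 lower, 2 and 1, and 7 and 0. The 7 were Chmp6, Chmp1a, Snf8, Chmp4b, Tsg101, Becn1 and Snx3, named after their values were seen, and are 21.2% of the list. The 26 exocyst activators and SNARE proteins had 0 higher and 5 lower, 1 and 4, and 4 and 0. Over all genes tested, 6.18% were higher and 4.69% lower at that level in Active against Inactive muscle, 4.19% and 3.54% in Activity Reduction against Inactive muscle, and 6.89% and 6.44% in Activity Reduction against Active muscle. Medians of the 4 lists lay between -0.05 and 0.04 in the 3 comparisons.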

How the data were processed

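Per the labels and the study's methods, the authors used fastp for trimming, STAR for alignment to GRCm39 and featureCounts for counting. The deposited values are raw counts per gene and library. The other deposited table equalled it in all 857913 values and was left out. Members, roles, partner lists, tests and alternatives were chosen with earlier results of these data known.

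Counts of 16129 genes in 21 libraries were fitted with edgeR 4.0.16 (quasi-likelihood test, TMM, filter on low counts, Benjamini-Hochberg adjustment over all genes) under R 4.3.3, and with DESeq2 1.42.0, the authors' tool, as an alternative. The test was also run on data simulated from the main fit, with log2 changes of 0.5 and 1. Of these, 89% and 98% were recovered at an adjusted p under 0.05, and 9 unchanged genes were called as well. The changes were put only into genes above a minimum mean CPM, which Rab27b, Rab32 and Vps37d do not reach. The shares recovered hence do not apply to members with so few counts. Smaller changes, such as most of those described here, were not simulated. Genes were called at an adjusted p under 0.05 and a log2 fold change over 0.25. Normalized counts are counts divided by DESeq2's size factors. Single members were compared by two-sided exact permutation tests of 7 against 7 mice (36 tests of 12 members, unadjusted, the members having been taken for their small edgeR p). CPM per kilobase used merged exons of GENCODE M39. Transcripts were compared with BLAST 2.17.0 (matches of at least 150 bases, 10% of the transcript and 95% identity). Named members were the 8 with the smallest edgeR p in each comparison, any called by edgeR or by DESeq2 on the 2 groups, the 3 highest per family and the exocyst subunits. Of the partner lists, any gene called by a fit and otherwise the 2 with the smallest p in each comparison were named. Marker lists of adipocyte, Schwann cell, red cell, and mast cell and platelet were also counted, and their summed ranges overlapped between all groups. Library totals from 38482455 to 59785132 counts set the precision. Replicate numbers of the labels did not pair the mice.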

Additional observations from a re-analysis of the deposited data

Results flagged for a closer look

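Among 45 groups of 7 values (12 members and the 3 family sums, in 3 groups each), 2 held a value far from the other 6 by Dixon's test at the 95% level, where chance gives about 1 group in 20. Rab43 in Inactive replicate 1 had a normalized count of 476.3, and the next highest Inactive value was 342.5. This is the 1 Inactive library with more liver transcripts. Rab8b in Activity Reduction replicate 2 had a normalized count of 272.3, and the next lowest value was 300.5. The cause of either was not tested.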

How the results depend on the processing

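The 29 differences of named members with an unadjusted p under 0.05 kept their direction in every alternative fit, 232 checks in all. The alternatives were DESeq2 on 3 or 2 groups, edgeR on 2 groups, other size factors and no filter. The liver covariate, the libraries with fewer liver transcripts and the replicate block were the others. Of the other 67 differences of named members, 19 turned direction in at least 1 of these fits, those of Exoc6 among them. The 29 were chosen by their p in the main fit, and the alternatives use the same libraries or part of them. A kept direction was therefore likely in advance and is no independent support. The number of members called was 1 with DESeq2 on the 3 groups and 1 with DESeq2 on the 2 groups in Active against Inactive muscle, and 1 with DESeq2 on the 2 groups in Activity Reduction against Inactive muscle, each time Exoc7. With only the libraries with fewer liver transcripts, 1 member was higher in Active against Inactive muscle at an unadjusted p under 0.05. This is 1 of 95, against 3.02% of all genes in that fit, and 6 were lower (6.32%, against 3.06%). In Activity Reduction against Active muscle 4 were higher and 0 lower (4.21% and 0%, against 2.02% and 2.39%). Only 2 Active libraries remained in this fit. With DESeq2, on 3 or on 2 groups, 5 members were higher and 8 lower in Active against Inactive muscle. These were 5.26% and 8.42% of the members. Of all genes, those with few counts included, 3.79% and 3.34% were on 3 groups and 4.07% and 3.74% on 2. With the liver covariate, 3 members were lower in Activity Reduction against Inactive muscle (3.16%, against 3.71%). With edgeR on the 2 groups, 4 members were higher in Activity Reduction against Active muscle (4.21%, against 5.27%). The cause of these changes was not tested. No member had an edgeR adjusted p under 0.05, so another fold threshold could not change the edgeR counts. With DESeq2 on the 2 groups Exoc7 was 19.55% and 16.19% lower than in Inactive muscle, so a threshold of a 20% change would leave it out. Exoc7 by DESeq2 with 1 library left out had log2 fold changes from -0.35 to -0.28 in Active against Inactive and from -0.28 to -0.22 in Activity Reduction against Inactive muscle.

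Replicate numbers are shared by the groups, but 7 of 21 same-number pairs had a correlation over 0.1 (range -0.22 to 0.47), and 4 libraries correlated best with their own number, so the numbers were not taken as pairing. With the replicate block 0 members were called in each comparison, and 3 in place of 5 members were lower in Activity Reduction against Active muscle (3.16%, against 7.85%).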
